A study of Mus musculus with 2 samples.

Results

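Of 4385 cells kept from a sort of adipose tissue macrophages (ATMs), 82 held transcripts of at least 2 of the 6 genes *Ccl17*, *Klrd1*, *Itgb7*, *Flt3*, *Slc27a3* and *H2-Oa*. These 82 cells, called gated cells here, are the subject of the comparisons that follow, and they numbered 44 of 2364 in mice on a control diet (CD) and 38 of 2021 in mice given a high fat diet (HFD) overnight. A cell was kept when it had 200 to 3500 genes and at most 10% of its unique molecular identifiers (UMIs, each standing for 1 captured RNA molecule) from mitochondrial genes. The 6 genes were chosen from values measured in these libraries, so their own levels in the gated cells are given as a description.

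Droplet-based scRNA-seq was performed on cells from the epididymal fat of male C57/BL6 mice (C57BL/6JOlaHsd in the study's methods) aged 8 to 12 weeks, with 3 mice pooled into 1 CD library (11 kcal% fat) and 3 mice pooled into 1 HFD library (58 kcal% fat overnight). Cells of both diets had been sorted on CD45 and F4/80 as negative for lineage markers that included TCRb, SiglecF and Ly6G. The labels give low or no Ly6C, and the study's methods give CD11b, as a further mark of the sorted cells, so a dendritic cell without F4/80 on its surface would have been lost in the sort. With 1 pooled library per diet there was no replicate check and no test, intervals cover counting error only, and the diet cannot be told apart from the library.

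In all, 15003119 UMIs from 4459 barcodes were counted for CD, and 9164686 from 3163 for HFD. Gated cells were deeper than the other kept cells, with a median of 8161.5 against 4409.5 UMIs in CD and 7864 against 2722 in HFD. Their median mitochondrial share was 1.98% against 4.18% in CD and 1.92% against 3.67% in HFD. The libraries shared 14 barcodes, of which 7 were kept in both and 0 were gated. Of the barcodes with the highest doublet scores, up to the expected rate, 0 were among the 44 CD gated cells and 1 was among the 38 HFD gated cells. Such barcodes made up 4.48% of all kept CD cells and 3.22% of all kept HFD cells, and so few gated cells cannot show a difference from these shares.

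Conventional dendritic cells (cDCs) take up antigen, display its peptides on MHC class II and prime T cells in the draining lymph node. They arise from bone marrow precursors that respond to FLT3 ligand, and are divided into cDC1, which depend on BATF3 and IRF8 and present to CD8 T cells, and cDC2, which depend on IRF4 and present mainly to CD4 T cells. ATMs instead need CSF1, and are rich in complement C1q, scavenger receptors and lysosomal enzymes. Cells of both lineages share the F4/80 and CD11b gates in part, so dendritic cells may appear in a macrophage sort.

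The gate genes cover several roles. *Flt3* encodes the receptor for FLT3 ligand, *H2-Oa* a chain of the MHC class II modulator H2-O, *Ccl17* a chemokine that draws CCR4-bearing T cells, *Itgb7* an integrin chain, *Slc27a3* a fatty acid transport family protein, and *Klrd1* the lectin CD94, best known from NK cells. *Itgb7* and *Slc27a3* met the gate in most gated cells, with a UMI in 38 and 32 of the 44 CD cells and in 32 and 22 of the 38 HFD cells. *Klrd1* was seen in 18 CD and 17 HFD gated cells, *Ccl17* in 12 and 10, *Flt3* in 11 and 9, and *H2-Oa* in 13 and 11. Each of the genes *Ccl17*, *Klrd1* and *Flt3* was therefore detected in fewer than 1 in 2 gated cells, and the most common pair was *Itgb7* with *Slc27a3* alone (8 CD and 9 HFD cells).

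Just outside the gate, with 1 of the 6 genes, were 169 CD and 147 HFD cells, and just inside it, with 2, were 20 and 19. The summed macrophage list (18 genes) stood at 34980 CPM (the UMIs of a gene or list per 1000000 UMIs) in CD cells with no gate gene, at 15051 with 1 and at 5788 with 2. In HFD it stood at 22819, 9043 and 6857 CPM. The MHC class II list (10 genes) stood at 45076, 51557 and 65841 CPM in the same CD cells and at 53620, 58015 and 70208 CPM in the HFD cells, so cells with 1 gate gene lay between the others in both lists. Of cells with a UMI of both *Lyve1* and *Folr2*, markers of resident macrophages that should lack the gate genes, 0 of 1117 in CD and 0 of 309 in HFD met the gate, which allows shares of up to 0.269% and 0.971%, at a median depth of 4012 and 2344 UMIs. Of cells with a UMI of both *Trem2* and *Cd9*, 1 of 48 in CD (2.08%, exact 95% interval 0.053 to 11.1) and 0 of 32 in HFD met it. Single gate genes were not absent from the *Lyve1* *Folr2* cells: *Itgb7* had a UMI in 2.15% of these CD cells and 0.324% of the HFD cells, and *Slc27a3* in 1.34% and 0.971%.

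**Figure D1:**
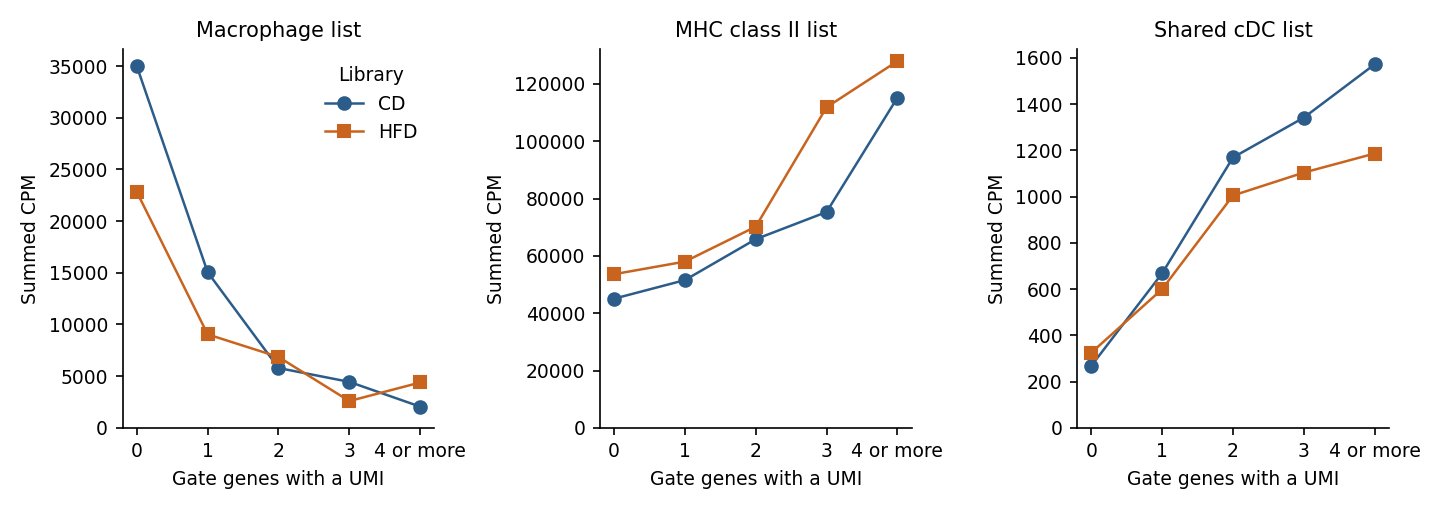
Summed CPM of the macrophage, MHC class II and shared cDC lists (vertical axes, from 0) against the number of the 6 gate genes with a UMI (horizontal axis) in CD (circles) and HFD (squares); cells with 2 or more are the gated cells, and the last points hold 8 CD and 4 HFD cells. From 0 to 2 gate genes the macrophage list is lower and the other lists are higher at each step in both libraries.

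Gated cells made up 1.86% of the kept CD cells (exact Clopper-Pearson 95% interval 1.36 to 2.49) and 1.88% of the kept HFD cells (1.33 to 2.57). The difference, HFD minus CD, was 0.019 percentage points with a Newcombe interval of -0.79 to 0.85. That interval covers counting error over cells only, so it cannot decide whether the diets differ. After each cell was thinned to 2000 UMIs, 20 of 2063 CD cells (0.969%) and 13 of 1247 HFD cells (1.04%) met the gate, with 301 and 774 shallower cells left out. At 1000 UMIs the shares were 0.389% and 0.285%, so the share that the gate finds depends on depth, while the interval of the difference included 0 at both depths.

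The gated cells were then compared with the other kept cells of their own library over 6388 genes with at least 100 UMIs in each library, gate genes left out. A ratio of at least 2-fold in both libraries was found for 70 genes that were higher in gated cells (1.10% of those compared) and for 430 that were lower (6.73%). Over all 6388 genes the median log2 ratio was -0.14 in CD and -0.13 in HFD. The counts depend on depth and weighting, with 177 higher and 121 lower when cells were thinned to 1000 UMIs (9 CD and 5 HFD gated cells left), 126 lower between the quartiles of gated cell depth, and 123 higher and 667 lower when each cell weighed the same. The lower genes rest on few molecules: 318 of the 430 had under 10 UMIs in the gated cells of both libraries, and 4 had 0 in both.

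*Cd209a* (chr8:3743397-3748984, minus strand, GRCm38), which encodes a C-type lectin of the DC-SIGN family used as a marker of mouse cDC2 and of monocyte-derived dendritic cells, had the highest of the lesser ratios of the libraries, by which the higher genes were ranked, although *Ms4a4c* (3.4), *Bckdhb* (3.15) and *Cd9* (3.51), a tetraspanin gene outside the named ones and picked after its values were seen, had larger log2 ratios in CD. It stood at 785.6 CPM in CD gated cells against 113.1 CPM in the other CD cells, and at 671.1 against 48.9 CPM in HFD, log2 ratios of 2.80 (95% interval 2.61 to 2.98) and 3.78 (3.53 to 4.03). The level in the gated cells was thus similar in the libraries, and the larger HFD ratio came with a lower level in the other HFD cells. A *Cd209a* UMI was present in 31 of 44 CD and 27 of 38 HFD gated cells. With all cells thinned to 1000 UMIs the shares were 34.1% of gated and 11.4% of other cells in CD, and 36.8% and 4.55% in HFD. *Cd209a* was no mark of the gated cells alone, since *Lyve1* *Folr2* cells held 176 CPM in CD and 123 CPM in HFD.

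*Napsa* and *Cd24a*, both on a list of genes shared by cDC subsets, were also more than 2-fold higher in both libraries. *Napsa* (chr7:44572380-44586862, plus strand), an aspartic protease that is abundant in mouse dendritic cells, stood at 340.0 against 49.5 CPM in CD and at 351.7 against 85.6 CPM in HFD, log2 ratios of 2.78 (2.50 to 3.05) and 2.04 (1.73 to 2.33). It had a UMI in 36 CD and 32 HFD gated cells. *Cd24a*, a surface glycoprotein, stood at 417.3 against 100.3 CPM in CD and 303.3 against 85.0 CPM in HFD. With 3 gate genes required its HFD log2 ratio was 0.99, just under 2-fold. The summed list stood at 1311 against 315 CPM in CD (log2 ratio 2.06, 1.92 to 2.19) and at 1058 against 363 CPM in HFD (1.54, 1.37 to 1.71). Of its 5 genes with enough UMIs, 2 were at least 2-fold higher in both libraries and 0 lower, against 1.10% and 6.73% of all genes, and the other 3 (*Itgax*, encoding CD11c, *Ciita*, the switch for MHC class II transcription, and *Cbfa2t3*) were higher in sign, as were 1560 of all 6388 genes. The median log2 ratio of the 5 was 1.82 in CD and 0.98 in HFD.

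Further genes of this list had too few UMIs to be counted but are given for completeness. *Bcl11a*, a transcription factor of cDC and plasmacytoid lineages, had 11 UMIs in CD and 9 in HFD gated cells (28.3 and 29.0 CPM, against 1.18 and 2.32 in other cells). *Jaml*, an adhesion molecule, had 28 and 14 UMIs, and *Dpp4*, encoding CD26, had 14 and 5. *Zbtb46*, the transcription factor used to define cDCs, had 8 UMIs in CD and 3 in HFD gated cells, 20.6 and 9.68 CPM against 4.2 and 2.57 CPM in the other cells. Btla was at 0 in the gated cells of both libraries.

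The cDC2 list was mixed. On the cDC2 list (10 genes, 8 with enough UMIs), *Cd209a* and *Tnip3*, an inhibitor of NF-kB signalling, were at least 2-fold higher in both libraries and 0 were lower, against 1.10% and 6.73% of all genes. *Clec4b1*, a C-type lectin, stood at log2 ratios of 0.72 and 0.91, *Irf4* at 0.40 and 0.53, and *Mgl2*, encoding the lectin CD301b, at 0.32 in CD and 1.43 in HFD. *Clec10a* (CD301a) and *Sirpa*, also on the list, were lower in sign in both, at -0.68 and -0.06 for *Clec10a* and -1.32 and -0.75 for *Sirpa*, a phagocyte receptor that macrophages carry too. *Cd1d1*, which presents lipids, was lower in sign as well, with 1 UMI in CD gated cells (2.58 against 21.9 CPM) and 6 in HFD (19.4 against 20.8 CPM). The summed list was 2908 against 2000 CPM in CD and 2894 against 1411 CPM in HFD, and its median log2 ratio was 0.36 and 0.72.

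On the cDC1 list, 0 of 4 genes with enough UMIs passed 2-fold in both libraries. *Irf8*, which cDC1 need, was lower in sign, with 10.3 against 70.8 CPM in CD and 32.3 against 60.2 CPM in HFD, whereas *Batf3* stood at log2 ratios of 0.50 and 0.41 and *Naaa*, a lysosomal amidase, at 0.78 and 0.55. Clec9a, a receptor for dead cells that defines cDC1, had a UMI in 4 CD and 1 HFD gated cells, each of which also held *Cd209a*, and Xcr1 was at 0 in the gated cells of both libraries. *Ccr7*, which guides mature dendritic cells to lymph nodes, had a UMI in 0 CD and 1 HFD gated cells, which allows a share of cells with a UMI of up to 6.82% in CD. On the plasmacytoid list *Tcf4* was lower by more than 2-fold in both libraries (20.6 against 127.7 CPM and 32.3 against 94.5 CPM), and *Siglech* had a UMI in 1 and 2 gated cells. Shared cDC genes thus went with the name dendritic cells, although *Zbtb46* was detected in only 8 of 44 and 3 of 38 gated cells. No subset name is used for them here, since 2 of 8 cDC2 genes passed 2-fold, *Clec10a*, *Sirpa* and *Cd1d1* were lower in sign, and *Cd209a* was not detected in 13 CD and 11 HFD gated cells.

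**Figure D2:**
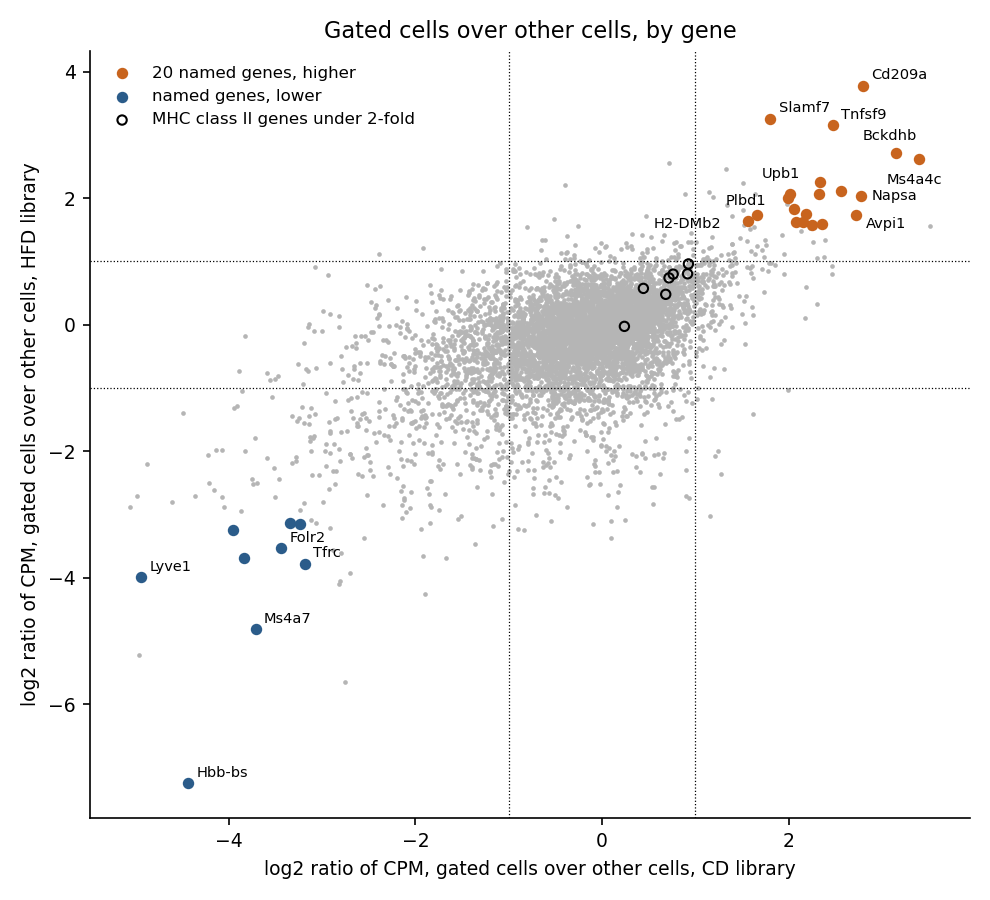
Each point is a gene with UMIs in the gated cells of both libraries, placed by its log2 ratio of CPM, gated over other cells, in CD (horizontal) and HFD (vertical); dotted lines mark 2-fold, orange points the 20 named higher genes, blue points named lower genes and open circles MHC class II genes under 2-fold. *Cd209a* is the highest point in HFD at 3.78, and the MHC class II circles lie between 0 and 1 on both axes except *Ctss*, which is at -0.03 in HFD.

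MHC class II genes were higher as a group, most of them by less than 2-fold. The summed list stood at 78747 against 45822 CPM in CD (log2 ratio 0.78, 0.76 to 0.80) and at 90858 against 54223 CPM in HFD (0.74, 0.73 to 0.76). Of its 8 genes with enough UMIs, 7 were higher in both libraries and 1, *H2-DMb2*, by at least 2-fold, against 1560 of all 6388 genes that were higher in both. *H2-Aa* and *H2-Ab1*, the chains of the I-A molecule, had log2 ratios of 0.72 and 0.76 in CD and 0.74 and 0.80 in HFD. *H2-Eb1*, the I-E beta chain, had 0.44 and 0.57, and *Cd74*, the invariant chain that guards the peptide groove until the endosome, had 0.92 and 0.80. *H2-DMb2*, a chain of the H2-DM molecule that helps load peptide, stood at 265.3 against 89.9 CPM in CD and at 203.3 against 65.5 CPM in HFD, log2 ratios of 1.56 (1.26 to 1.85) and 1.63 (1.23 to 2.01), and its closely related neighbour *H2-DMb1* at 0.93 and 0.96. *Ctss*, the protease that trims the invariant chain, was at 0.24 and -0.03.

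The start regions of MHC class II genes that were higher in gated cells of both libraries are shown because these promoters are known for a shared set of boxes read by RFX, NF-Y and CIITA. Below are the 120 bases before the start site of 3 list genes and of the gate gene *H2-Oa* from RefSeq (GRCm38.p6), 5' to 3' on the strand of the gene, all on chr17, with the letters of the NF-Y binding motif (the Y box) in capitals on either strand.
*H2-DMb2* (chr17:34145129-34145248, plus strand): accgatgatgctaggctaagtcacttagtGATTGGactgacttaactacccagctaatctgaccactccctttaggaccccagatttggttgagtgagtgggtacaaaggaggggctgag
*H2-Aa* (chr17:34287824-34287943, minus strand): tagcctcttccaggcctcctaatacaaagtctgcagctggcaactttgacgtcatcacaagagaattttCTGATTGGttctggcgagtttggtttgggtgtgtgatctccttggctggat
*H2-Eb1* (chr17:34305747-34305866, plus strand): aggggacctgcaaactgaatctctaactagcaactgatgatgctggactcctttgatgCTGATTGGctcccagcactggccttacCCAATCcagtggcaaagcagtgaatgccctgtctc
*H2-Oa* (chr17:34092259-34092378, plus strand): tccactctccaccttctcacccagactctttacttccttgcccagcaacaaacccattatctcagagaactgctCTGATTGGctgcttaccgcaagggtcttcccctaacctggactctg

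The letters GATTGG begin 91 bases before the start site in *H2-DMb2*. The longer letters CTGATTGG, which contain GATTGG, begin 51 bases before it in *H2-Aa*, 62 in *H2-Eb1* and 46 in *H2-Oa*. *H2-Eb1* also holds GATTGG on the opposite strand, printed as CCAATC, from 35 bases before the start. Both were searched on both strands of the 250 bases before the start of each promoter of the table. GATTGG was found in 8 of the 9 genes matched, of 11 genes on the MHC class II list together with *H2-Oa*, and in 14.6% of 32851 promoters, and CTGATTGG in 4 of the 9 and in 3.83%. A match of letters is a description and was not tested as a binding site.

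Costimulatory and T cell contact genes were mixed. *Tnfsf9*, encoding the 4-1BB ligand that boosts CD8 T cells, stood at 213.8 against 38.4 CPM in CD and at 377.5 against 42.3 CPM in HFD, log2 ratios of 2.48 (2.12 to 2.82) and 3.16 (2.84 to 3.47). *Slamf7*, a self-binding receptor of leukocytes, stood at 87.6 against 25.1 CPM and at 145.2 against 15.2 CPM. *Cd86*, a ligand of CD28, was at least 2-fold lower in both libraries, with 59.2 against 149.6 CPM in CD and 41.9 against 119.5 CPM in HFD. *Cd83* stood at log2 ratios of 0.29 and 0.43, and *Cd80*, *Cd40* and *Icosl* had 12 UMIs or fewer in the gated cells of each library.

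Of 15 chemokine genes, 13 had enough UMIs, and 6 were at least 2-fold lower in both libraries while 0 were higher, against 6.73% and 1.10% of all genes, with a median log2 ratio of -1.36 in CD and -1.19 in HFD. The lower genes were *Ccl2*, *Ccl7*, *Ccl8* and *Ccl12*, which draw monocytes through CCR2 and related receptors, *Ccl24*, which draws eosinophils, and *Cxcl2*, which draws neutrophils. *Ccl2* stood at 283.3 against 1365 CPM in CD and at 183.9 against 941.6 CPM in HFD. *Ccl4*, a chemokine of inflammation, was higher in sign, at log2 ratios of 0.89 in CD and 2.07 in HFD. *Ccl5* had 97 UMIs in the CD gated cells, all in 1 cell, and 0 in the HFD gated cells.

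Among receptors for chemoattractants, *Ltb4r1*, the receptor for leukotriene B4, stood at 327.1 against 68.1 CPM in CD and at 290.4 against 117.0 CPM in HFD (log2 ratios 2.26 and 1.31). The lysolipid-sensing receptor *Gpr132* stood at 1.19 and 1.0. *C5ar1* and *C3ar1*, receptors of complement fragments, and *Cxcr4* were at least 2-fold lower in both libraries, so 1 gene of 10 with enough UMIs was higher and 3 were lower, against 1.10% and 6.73% of all genes. *Ccr2*, which monocytes and their progeny use to enter tissue, was at 685.1 against 556.6 CPM in CD and 780.8 against 603.0 CPM in HFD. Growth factor receptors included *Csf1r*, on which macrophages depend, at 177.7 against 836.1 CPM and 174.2 against 482.2 CPM, and *Il2rg*, the common cytokine receptor chain, at log2 ratios of 1.07 and 0.99. *Il1b*, an inflammatory cytokine, stood at 1108 against 545.1 CPM in CD and 1423 against 816.9 CPM in HFD.

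Of 13 transcription factors of dendritic cells with enough UMIs, 2 were at least 2-fold higher in both libraries and 1 was lower, against 1.10% and 6.73% of all genes, so the lower side was near the share of all genes. *Runx3* had log2 ratios of 2.39 and 1.34 and *Etv3* of 1.14 and 1.21. *Klf4*, a factor of monocytes and macrophages, had -1.15 and -1.05. *Spi1*, encoding PU.1, which both lineages need, was at 0.02 and -0.03.

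Other genes among the 20 highest have less established roles in dendritic cells. *Bckdhb*, a subunit of the branched-chain keto acid dehydrogenase, stood at 74.7 against 8.41 CPM in CD and 67.8 against 10.3 CPM in HFD. *Plbd1*, a phospholipase B-like protein, stood at 520.3 against 130.7 CPM and 400.1 against 100.2 CPM and was seen in 42 CD and 33 HFD gated cells. *Ms4a4c*, a membrane protein of the MS4A family, had log2 ratios of 3.4 and 2.61, with 48.4% of its HFD UMIs in 1 cell. *Upb1*, an enzyme of pyrimidine breakdown, had 2.34 and 2.26, *Itpr1*, a calcium channel of the endoplasmic reticulum, 2.56 and 2.12, and *Traf1*, an adaptor of TNF receptors, 2.01 and 2.06. *Tspan13*, *4930523C07Rik*, *Avpi1*, *Fgl2*, *Smim5* and *Bri3bp* lay between 1.66 and 2.72 in CD and between 1.60 and 2.06 in HFD.

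Not all of these were higher in gated cells than in every other cell group. In 19 CD and 32 HFD cells with at least 2 UMIs of *Plac8*, a monocyte marker, *Ms4a4c* stood at 795 and 490 CPM against 124 and 100 CPM in gated cells, and *Tspan13* at 174 and 141 CPM against 43.8 and 48.4 CPM. *Napsa* and *Plbd1* were higher in CD *Plac8* cells (414 and 613 CPM) than in CD gated cells (340.0 and 520.3 CPM) but lower in HFD (202 and 282 CPM against 351.7 and 400.1 CPM). *Cd209a* was at 0 in CD and 42.9 CPM in HFD in *Plac8* cells, and *H2-DMb2* at 58 and 0 CPM. *Cd24a* (8.28 and 30.6 CPM) and *Tnfsf9* (8.28 and 24.5 CPM) were also far lower there than in gated cells. In cells with a UMI of both *Trem2* and *Cd9*, markers of lipid-associated macrophages, *Cd209a* stood at 51.7 CPM in CD and 29.2 CPM in HFD.

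Macrophage genes were the clearest group on the lower side. Of 18 genes 17 had enough UMIs, 17 were lower in sign in both libraries and 14 were at least 2-fold lower in both, against 6.73% of all genes. Its median log2 ratio was -2.89 in CD and -2.15 in HFD. The summed list stood at 4574 against 32688 CPM in CD (log2 ratio -2.84, -2.91 to -2.77) and at 5052 against 20930 CPM in HFD (-2.05, -2.12 to -1.98). *C1qa*, a chain of complement C1q, stood at 535.7 against 3959 CPM in CD and at 432.3 against 2139 CPM in HFD. *Apoe*, the lipid carrier, stood at 904.1 against 8786 CPM and at 1655 against 7078 CPM. *Cd68*, a lysosomal glycoprotein, was at -0.31 and -0.24 and *Adgre1*, which encodes F4/80, the marker of the sort, at -1.0 and -0.62.

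The 10 lowest genes by the same rule included the resident macrophage markers *Lyve1*, a hyaluronan receptor, and *Folr2*, a folate receptor. *Lyve1* had 4 UMIs in CD gated cells (10.3 against 315.8 CPM) and 2 in HFD (6.45 against 102.9 CPM). *Folr2* stood at 108.2 against 1172 CPM and at 25.8 against 298.3 CPM. *Ms4a7*, *Angptl4*, *Mmp12*, *Tfrc*, *Cmklr1* and *Camk2d* had 1 to 4 UMIs in the gated cells of each library. *Hbb-bs* and *Hba-a2*, the haemoglobin chains, were on the same list, with *Hba-a2* at 0 in the gated cells of both libraries. Its UMIs lay in only 5.3% of other CD cells and 1.8% of other HFD cells. A count of 0 in the few gated cells therefore sets no bound on its fold. An *Hbb-bs* UMI was found in 15.9% of gated and 16.1% of other CD cells, and in 2.63% and 4.44% in HFD. Haemoglobin was uneven among the other cells, since *Hbb-bs* stood at 8365 CPM in CD *Trem2* *Cd9* cells and at 36.3 CPM in CD *Lyve1* *Folr2* cells.

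Lysosomal genes were lower in 6 of 15 by at least 2-fold in both libraries and higher in 0, against 6.73% and 1.10% of all genes, with a median log2 ratio of -1.33 in CD and -0.72 in HFD. *Ctsl*, a cysteine protease, had log2 ratios of -2.92 and -2.60 and *Cd63*, a tetraspanin of late endosomes, -3.50 and -2.72, whereas *Psap* and *Npc2* lay between 0.01 and 0.15. Lipid handling genes were at least 2-fold lower in both libraries in 5 of 11 and higher in 0, against the same shares of all genes, with a median of -1.76 and -1.41. Of the lower ones, *Fabp4* did not keep 1 direction in every setting. *Cd36*, a fatty acid receptor, stood at 97.9 against 834.0 CPM in CD and at 309.7 against 1049 CPM in HFD, and *Trem2*, the receptor of lipid-associated macrophages, had 2 UMIs in the gated cells of each library. On the monocyte list 2 of 7 were at least 2-fold lower in both libraries (*Plac8* and *Lyz1*, encoding a lysozyme), against 6.73% of all genes. *Ly6c2*, the gene of the Ly6C left out by the sort, was at 0 in the gated cells of both. The median cell did not follow these sums, with the monocyte list at 2126 CPM in gated and 1038 CPM in other CD cells and at 3509 and 3256 CPM in HFD. A *Plac8* UMI was found in 4.55% of gated and 1.72% of the shallower other CD cells and in 10.5% and 3.48% in HFD, but with all cells thinned to 1000 UMIs in 0 gated cells of either library and in 0.617% and 2.27% of other cells. Cytosolic ribosomal protein genes were higher in sign in 79 of 85, against 1560 of all 6388 genes, with 0 past 2-fold, but their HFD sum turned from a log2 ratio of 0.32 to -0.08 with cells thinned to 1000 UMIs. Other lists held few genes past 2-fold in both libraries. There were 0 of 11 MHC class I genes, 0 of 9 integrin and adhesion genes and 0 of 9 heat shock genes, and on the lower side 1 of 12 immediate early genes (*Ier3*), 2 of 6 interferon-stimulated genes (*Oasl2* and *Ifi204*) and 1 of 6 cytokine genes (*Il10*), of which *Ier3* and *Il10* did not keep 1 direction in every setting. These small counts stand beside the 6.73% of all genes that were lower, a share that 1 of 12 is near. *Itgal*, the CD11a chain of LFA-1, which binds T cells to dendritic cells, had too few UMIs to be counted and stood at 51.5 against 5.04 CPM in CD and 32.3 against 6.04 CPM in HFD.

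**Figure D3:**
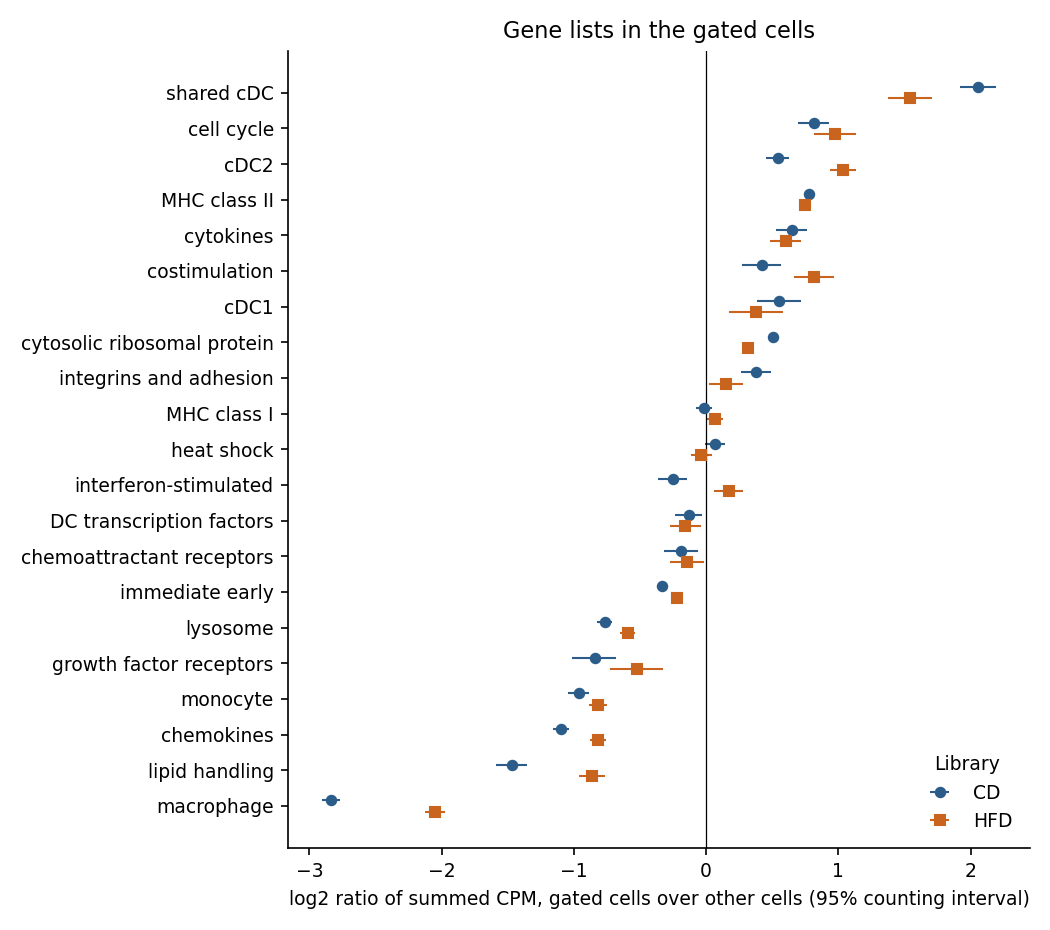
log2 ratio of summed CPM, gated over other cells, for the 21 gene lists with at least 100 UMIs in the gated cells of each library, gate genes left out (rows), in CD (circles) and HFD (squares), with 95% intervals for counting error. Among these 21 the shared cDC list lies highest (2.06 and 1.54) and the macrophage list lowest (-2.84 and -2.05); of the sparser lists not drawn, T or NK was higher in CD (3.55), stromal or adipocyte lower in CD (-3.27) and peritoneal macrophage lower in HFD (-2.38).

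Markers of other cell types were near 0 for some lists and not for others. Neutrophil, eosinophil or mast, and endothelial genes summed to at most 5.15 CPM in the gated cells of either library. T or NK genes summed to 144 CPM in CD gated cells against 12.4 CPM in other cells, and to 54.8 against 19.5 CPM in HFD. Of the 56 CD UMIs, 45 were in 1 cell, which held Cd3g, Trac, Cd8a, Nkg7 and *Klrk1* (7, 6, 3, 12 and 9 UMIs), all 97 of the *Ccl5* UMIs, 312 UMIs of *Cd74* and 0 of *Cd209a*. Without it the CD gated cells had 29.0 CPM. In HFD all 17 UMIs of the list were *Klrk1*, which encodes the receptor NKG2D, spread over 13 cells, against 18.4 CPM in other cells, and Cd3e, Ncr1 and Prf1 were at 0 in the gated cells of both libraries. *Il1rl1*, the IL-33 receptor, was the only ILC2 gene at least 2-fold higher in both libraries (90.1 against 39.7 CPM and 90.3 against 34.6 CPM), with Il5 and Il13 at 0. The summed ILC2 list stood at 137 against 152 CPM in CD and 210 against 151 CPM in HFD, the plasmacytoid list at 111 against 295 and 161 against 215 CPM, and the B cell list at 59.2 against 262 and 74.2 against 119 CPM. The HFD directions of these lists differed between settings. Between the quartiles of gated cell depth the HFD log2 ratio of the B cell list went from -0.68 to 0.76 and that of the plasmacytoid list from -0.42 to 0.33, and the ILC2 list crossed 0 in some settings in both libraries. A UMI of at least 2 genes of the T or NK, ILC2 and B cell lists was found in 18 of 44 CD and 17 of 38 HFD gated cells, against 21.0% and 12.3% of the shallower other cells, and the part of depth in that gap was not tested.

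Of 3 cell cycle genes with enough UMIs all were higher in sign in both libraries, and 1 by at least 2-fold, against 1560 of all 6388 genes and 1.10%. This was *Stmn1*, which encodes a microtubule regulator of dividing cells and stood at 319.4 against 102.8 CPM in CD and 138.7 against 33.1 CPM in HFD, though it did not keep 1 direction in every setting. A UMI of *Mki67* or *Top2a* was found in 11 of 44 CD and 5 of 38 HFD gated cells, against 5.99% and 2.37% of the shallower other cells. *Stmn1* stood at 1034 and 710 CPM in these 11 and 5 gated cells but at 14.7 and 27.0 CPM in the other 33 of each library. The level of the cells outside the gate includes those with a UMI of *Mki67* or *Top2a*, so it is no like measure for these 33. Most gated cells thus had neither gene, and the cell cycle list of the median gated cell (467.0 CPM in CD and 416.5 CPM in HFD) was below that of the median other cell (612.0 and 428.8 CPM). In HFD the summed list had a log2 ratio of 0.98 but lay at -0.62 when 3 gate genes were required, at -0.34 without *Itgb7* in the gate and at -0.27 between the quartiles of gated cell depth, so its direction there differed between settings.

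Cell by cell, low C1q was shared by most gated cells, while MHC class II varied widely. The sum of *C1qa*, *C1qb* and *C1qc* had a median of 569 CPM in CD gated cells, from 0 to 13334, against 12122 CPM in other CD cells. In HFD the median was 421 CPM, from 0 to 11680, against 6873 CPM. It lay below the lower quartile of the other cells in 42 of 44 CD and 29 of 38 HFD gated cells, so 2 CD and 9 HFD gated cells overlapped the main range of the other cells. The MHC class II list ran from 22777 to 248266 CPM in CD gated cells (median 69804, against 36790 in other cells) and from 29349 to 290133 CPM in HFD (median 96968, against 40269). The cells at these maxima were shallow, with 2163 UMIs in CD and 2037 in HFD. They also had the lowest ribosomal protein sums of the gated cells, 44845 and 35346 CPM, against medians of 210596 and 184531 CPM. None of the gated cells lay below the lower quartile of the other cells of its library in the MHC class II list, and 29 in each library lay above the upper quartile.

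**Figure D4:**
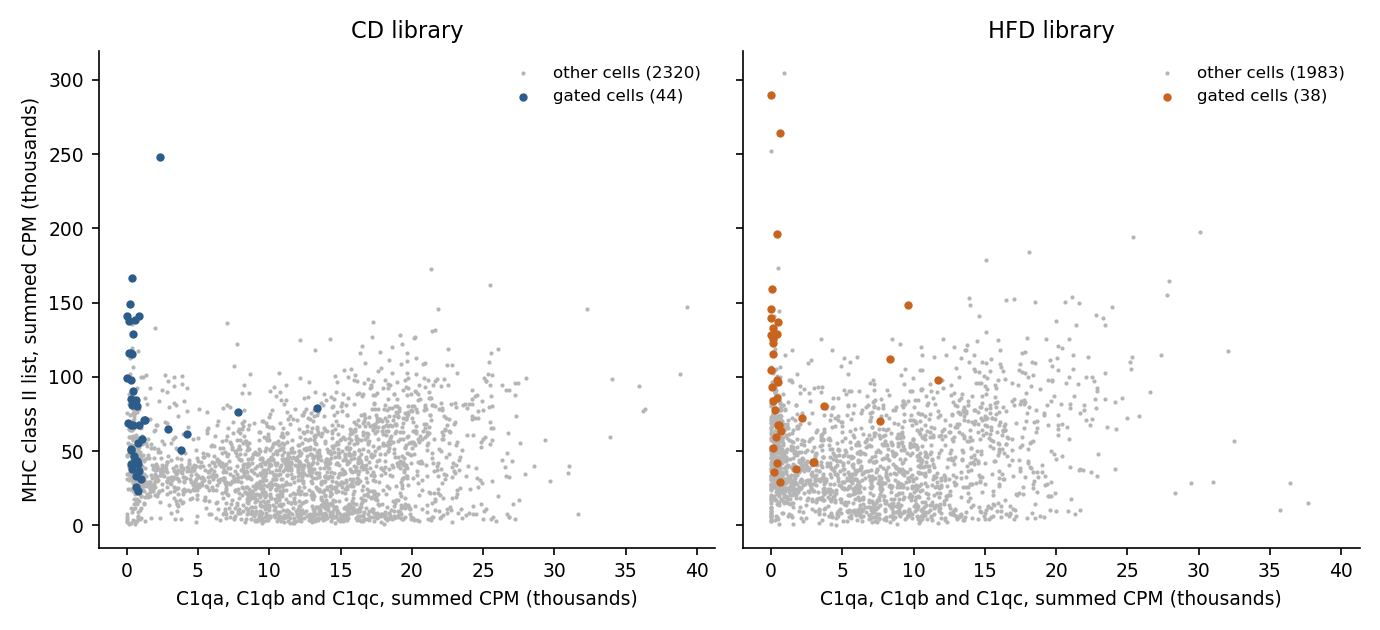
Each point is a cell, with its summed CPM of *C1qa*, *C1qb* and *C1qc* (horizontal) and of the MHC class II list (vertical), both in units of 1000 CPM, in CD (left) and HFD (right); coloured points are the 44 and 38 gated cells and grey points other cells. Most gated cells stand in a column near 0 of C1q, and 9 HFD gated cells reach the range of the other cells.

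Gated cells with and without a *Cd209a* UMI differed in other genes that the gate did not use. The 31 CD and 27 HFD cells with *Cd209a* had the MHC class II list at 88681 and 98639 CPM, and the 13 and 11 cells without it at 56181 and 67182 CPM. *Mgl2* stood at 1117 and 797 CPM with *Cd209a* and at 185 and 470 CPM without. The monocyte list was higher without *Cd209a*, at 5385 against 2159 CPM in CD and at 7356 against 5418 CPM in HFD, and its part in the split was not tested. The macrophage list did not order them alike, at 5412 against 2671 CPM in CD and 4994 against 5230 CPM in HFD. Without the gated cells with C1q at or above the lower quartile of other cells, of which 2 in CD and 6 in HFD held *Cd209a*, it stood at 3263 against 2671 CPM in CD and at 2221 against 1554 CPM in HFD. The 2 CD and 9 HFD gated cells with C1q at or above the lower quartile of other cells had the 15 macrophage genes other than C1q at 13834 and 9331 CPM and *Napsa* at 72.1 and 214 CPM, against 2244 and 1745 CPM and 361 and 399 CPM in the other gated cells.

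The HFD and CD gated cells were compared over 1657 genes with at least 50 UMIs in the 82 cells. At least 2-fold higher in HFD were 35 genes (2.11%) and at least 2-fold lower 34 (2.05%). These counts were 100 and 114 with the minimum of UMIs halved and 15 and 10 with it doubled, and the higher genes numbered 20 with 3 gate genes required, 17 with thinning to 1000 UMIs and 22 without *Itgb7* in the gate. For the same genes the other kept cells gave 14 higher (0.845%) and 18 lower (1.09%), from many more UMIs. Gated cells therefore showed more genes past 2-fold in both directions, in comparisons of 388244 and 309947 UMIs against 11895766 and 7776528, and the part of counting error in that gap was not tested.

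Of the 8 named genes higher in HFD gated cells, 7 had a ratio above 0 in the other cells too. *Lyz1* stood at 759.8 CPM in CD and 2520 CPM in HFD gated cells (log2 ratio 1.73, 1.53 to 1.93) and had a log2 ratio of 0.89 in other cells. *Cd36* stood at 97.9 and 309.7 CPM (1.66, 1.11 to 2.24), with 0.33 in other cells. *Ctsd*, a lysosomal protease, stood at 188.0 and 545.3 CPM (1.54, 1.13 to 1.95), with 0.91 in other cells. *Hspa1a*, a heat shock chaperone, stood at 172.6 and 574.3 CPM, *Cyp4f18* at 72.1 and 216.2 CPM, and the linker histone gene *Hist1h1c* at 46.4 and 122.6 CPM. *Gm10076* had nearly the same ratio in gated and other cells (3.64 and 3.57). *Irf1*, an interferon-response transcription factor, stood at 43.8 CPM in CD and 112.9 CPM in HFD gated cells (1.37, 0.49 to 2.30), but at 108.9 and 83.6 CPM in the other cells (-0.38, -0.52 to -0.25). With cells thinned to 1000 UMIs, which left 9 CD and 5 HFD gated cells, *Irf1* and *Hist1h1c* were no longer past 2-fold, both at a log2 ratio of 0.06.

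Of 5 lipid handling genes with enough UMIs, 3 were at least 2-fold higher in HFD gated cells and 0 lower, against 2.11% and 2.05% of all genes compared, and these were *Cd36*, *Lpl*, the lipase of triglyceride-rich lipoproteins, and *Plin2*, which coats lipid droplets. *Lpl* had a log2 ratio of 1.22 in gated and 0.12 in other cells, and *Plin2* of 1.68 and 1.56, and neither kept 1 direction in every setting. The monocyte list was higher in the HFD library as well, at 3145 CPM in CD and 5898 CPM in HFD gated cells (log2 ratio 0.91). The other cells had a similar ratio, at 6136 CPM in CD and 10386 CPM in HFD (0.76). Gated cells with C1q at or above the lower quartile of other cells numbered 2 of 44 in CD and 9 of 38 in HFD. That quartile was 6593 CPM in CD and 1536 CPM in HFD. These counts therefore rest on different cuts and show no move with the diet by themselves. The median C1q sum of gated cells was 569 CPM in CD and 421 CPM in HFD. The part of monocyte genes and of these C1q cells in the lipid handling genes was not tested. The shared cDC list had 0 of 4 genes past 2-fold and the MHC class II list 0 of 8, with summed log2 ratios of -0.31 and 0.21. The macrophage list had 1 of 13 lower, *Folr2*, whose log2 ratio was -2.07 in gated and -1.97 in other cells, but which had 8 UMIs in HFD gated cells and did not keep 1 direction in every setting.

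Lower in HFD gated cells was *Aif1*, encoding the phagocyte protein IBA1, at 118.5 CPM in CD and 12.9 CPM in HFD (-3.20, -5.13 to -1.75), with -1.68 in other cells. *Lgals1*, a secreted lectin, stood at 837.1 and 303.3 CPM (-1.46, -1.81 to -1.13), with -0.81 in other cells. *Lmo1* stood at 167.4 and 35.5 CPM and *Plp2* at 177.7 and 38.7 CPM, against 30.4 and 20.5 CPM for *Lmo1* and 32.1 and 20.3 CPM for *Plp2* in the other cells. *Cks1b*, *Gm11808*, *Slc48a1* and *Slc25a4* lay between -1.96 and -1.50. Of these, *Cks1b* (-0.94) and *Slc48a1* (-0.52) were no longer past 2-fold with cells thinned to 1000 UMIs, which left 9 CD and 5 HFD gated cells. All 8 named lower genes had a ratio below 0 in the other cells as well.

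**Figure D5:**
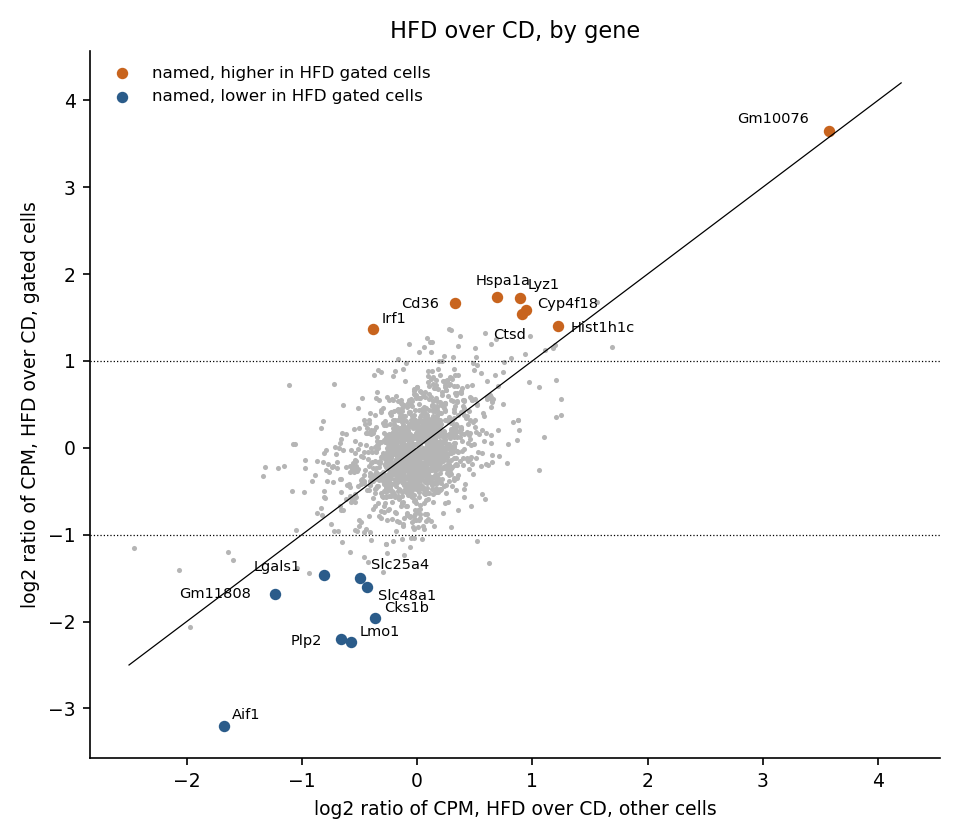
Each point is a gene, placed by its log2 ratio of CPM, HFD over CD, in other cells (horizontal) and gated cells (vertical); the solid line marks equal ratios, dotted lines 2-fold, and coloured points the named genes. *Gm10076* lies on the line at 3.57 and 3.64, and *Irf1* alone of the named genes is below 0 in other cells and above 0 in gated cells.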

How the data were processed

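Cells were sorted from epididymal fat of mice on CD or fed HFD overnight, and 1 library per diet was made with the 10x Chromium 3' kit. The authors deposited raw UMI counts for 31053 genes in each barcode, as whole numbers without normalization, after alignment to mm10 (Ensembl 93) by Cell Ranger 3.0.2. Barcodes with 200 to 3500 genes and at most 10% mitochondrial UMIs were kept, and those with a UMI of at least 2 of the 6 gate genes were taken as gated cells. Doublets were kept, and Scrublet (scanpy 1.11.5) scores were used in an alternative only. The gated cells, the gene lists and the alternatives were chosen with earlier results of these data known.

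UMIs were summed over gated and other cells of each library, and given as CPM. Ratios had exact conditional binomial 95% intervals, computed with scipy 1.17.1, numpy 2.4.6 and pandas 2.3.3 under Python 3.11.15. Genes were compared when they had at least 100 UMIs in each library (50 over the gated cells between diets), and a 2-fold rule stood in for a test. A gene at 0 was given the 3 counts that a count of 0 allows, and was ranked and counted by that bound. Named genes were the 20 highest and 10 lowest by the less extreme ratio of the libraries, and the 8 highest and 8 lowest between diets past 2-fold, in each case among genes in 1 direction under every alternative, together with genes of the lists, apart from a few that are not reported here. Simulated data with 6388 genes were made for the comparison of gated with other cells. The intervals held the true ratio in 96.0% (CD) and 96.9% (HFD) of genes. The rule called 100 of 100 genes set 4-fold higher and 84 of 100 set 4-fold lower. Of 6188 unchanged genes it called 0 as higher and 24 as lower. The simulated sums held counting error only, with no spread between cells, so the share of intervals that held the ratio follows from how the sums were drawn. The simulation therefore cannot tell how the intervals or the rule do for genes whose UMIs lie in few cells. The alternatives changed the gate, the filters, the depth, the weighting of cells or the minimum of UMIs. Gene positions are from GENCODE M21 (GRCm38), the build of mm10.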

Additional observations from a re-analysis of the deposited data

Results flagged for a closer look

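Of the 2095 CD barcodes outside the quality filters, 7 met the gate (0.334%), 5 with more than 3500 genes and 2 over the mitochondrial limit, and of the 1142 HFD barcodes outside them 1 did (0.0876%), with more than 3500 genes. They were singled out because they lie outside the data compared in the report and show the same gate genes, and they were not used there.

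*Irf1* was singled out because its HFD over CD log2 ratio was 1.37 in gated cells (0.49 to 2.30) and -0.38 in other cells (-0.52 to -0.25), opposite directions under the same contrast. The gated value rests on 17 CD and 35 HFD UMIs in 13 and 17 cells, it lay at 0.06 with cells thinned to 1000 UMIs (9 CD and 5 HFD gated cells), and the difference was not tested.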

How the results depend on the processing

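The named genes were picked for 1 direction in every setting that gave a value, 6 to 11 for each of 74 ratios, so their direction says nothing of stability. Of these ratios 8 lay under 2-fold in some setting, which were *Irf1* and *Hist1h1c* (0.06), *Cks1b* (-0.94) and *Slc48a1* (-0.52) between diets with thinning to 1000 UMIs, *Cd24a* (0.99) and *Smim5* (0.97) in HFD with 3 gate genes, *Smim5* (0.96) without *Itgb7* too, and *Klrk1* (0.39 in CD and 0.56 in HFD) without cells with 2 lymphoid markers, of which it is one. Of 61 sums of lists by library, 15 lay on the other side of 0 in at least 1 setting, with log2 ratios from -0.68 to 0.98 as reported, and among the 56 list genes counted past 2-fold with UMIs in both libraries, *Cd163*, *Fabp4*, *Ier3*, *Il10* and *Stmn1* did not keep 1 direction in every setting. The shares of gated cells (1.86% in CD and 1.88% in HFD) became 1.02% and 0.940% with 3 gate genes required, 1.23% and 1.09% without *Itgb7* in the gate, 0.389% and 0.285% with cells thinned to 1000 UMIs, 0.969% and 1.04% at 2000 UMIs, and 2.71% and 2.76% with a mitochondrial limit of 5%. Leaving out cells with a UMI of 2 lymphoid markers, a list that includes *Il1rl1*, *Areg*, *Ighm* and *Klrk1*, left 26 CD and 21 HFD gated cells and an HFD share of 1.19%. The HFD minus CD difference lay on either side of 0 and moved by less than its counting interval under each setting that gave one.

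The 70 genes higher in gated cells became 177 with cells thinned to 1000 UMIs (9 and 5 gated cells left), 123 with each cell weighing the same and 115 with a lower minimum of UMIs. The 430 lower genes became 121, 126 and 667 with thinning to 1000 UMIs, with cells between the quartiles of gated cell depth alone and with each cell weighing the same, and 266 with a doubled minimum. The 35 genes higher in HFD gated cells became 20 with 3 gate genes, 17 with thinning, 22 without *Itgb7* and 22 without cells with lymphoid markers, and 100 and 15 with the halved and doubled minimum. The 34 lower genes became 21 without cells with lymphoid markers, and 114 and 10 with those minimums. The counts between diets therefore depend on how few UMIs a gene may have.

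Between the quartiles of gated cell depth, 22 CD and 18 HFD gated cells were set against 389 and 341 others. Of the 52 named ratios of gated over other cells with a value there, 37 lay nearer 0 and 15 farther from it. That 0 lay on the other side was fixed in advance, since named genes were picked for 1 direction in this setting too. *Cd209a* had log2 ratios of 3.98 and 4.96 there, *Napsa* 2.19 and 1.72, *Upb1* 1.58 in CD, *Traf1* 1.34 in CD, *Ms4a7* -2.25 in CD, and *Lyve1* -2.21 and *Cmklr1* -1.20 in HFD. Across the settings and the named genes, 652 recomputed values moved by less than their counting interval and 110 by more, and for the lists 426 and 237. No paired analysis was possible because each diet is 1 pooled library. Depth limits genes with few UMIs most, since 3 UMIs over the gated cells are 7.73 CPM in CD and 9.68 CPM in HFD.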

Other observations

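*Ccl17* was not confined to gated cells. Of the kept cells with at least 10 *Ccl17* UMIs, a limit chosen after the values were seen, 4 of 5 in CD and 2 of 4 in HFD were gated. The CD cell outside the gate held 32 UMIs of *Ccl17*, 41 of *Ccl22*, a second ligand of CCR4, and 16 of *Ccr7*. The HFD cells outside it held 167 and 102 UMIs of *Ccl17*, 19 and 7 of *Ccl22*, and 0 and 8 of *Ccr7*, with 1 gate gene each. These HFD cells held 269 of the 290 *Ccl17* UMIs of the HFD cells outside the gate. Inside the gate the HFD UMIs were uneven too, with 30 and 16 of 62 in 2 cells. In CD, 80 of the 180 *Ccl17* UMIs of gated cells were in 1 cell, which also held 15 UMIs of *Ccl22* and 0 of *Ccr7* and of *Cd209a*.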
